A study of Mus musculus with 24 samples.

Results

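All 24 samples of the series were used, as 12 pairs, to measure the change between cells without and cells with GFP that oculomotor and spinal motor neuron cultures share. A pair holds the fraction with GFP and the fraction without it of 1 culture and 1 replicate number, sorted by FACS from dissociated embryoid bodies. The oculomotor culture was grown from the mouse embryonic stem cell line Islet1-GFP/NesEPhox2a, in which the nestin enhancer drives a Phox2a transgene in neural progenitors, and received 250 nM SAG and 100 ng/ml FGF8 for 5 days. The spinal culture was grown from the line Hb9-GFP and received 500 nM SAG and 100 nM retinoic acid for 5 days. Each of the 4 groups has 6 samples. Hb9 is the older name of *Mnx1*, and SAG activates Smoothened and with it hedgehog signalling. The line, the reporter and the patterning factors changed together between the cultures, so their parts in any difference between the cultures cannot be told apart. RNA was measured in bulk by SMART-seq2, which amplifies polyadenylated RNA without molecular identifiers.

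A motor neuron is born when a progenitor of the ventral neural tube leaves the cell cycle for good. Progenitors divide, are held in place by Notch signalling and carry *Sox2*. As they exit, they switch on *Isl1* and other homeodomain factors, replace general splicing and chromatin proteins by neuronal forms, lose *Rest*, the repressor of neuronal genes, and then build neurofilaments, an axon, synaptic vesicles and the proteins that make and store acetylcholine. Oculomotor and spinal motor neurons share this sequence, and *Mnx1* is the factor that spinal motor neurons carry and oculomotor neurons of the embryo lack.

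In the mean of both cultures, GFP-positive cells held more RNA of many genes of the neuronal cytoskeleton, of synapses and secretion and of motor neuron identity, and less RNA of many cell cycle genes and of many markers of endoderm, mesoderm and epithelia. *Isl1*, *Nefm*, *Nefl* and *Tubb3* were among the 12 genes with the largest shared rise, with log2 steps of 5.05, 5.12, 5.00 and 4.47 over 12 pairs. *Isl1* drives GFP in the oculomotor line, so its oculomotor step of 6.79 describes the sort. Its spinal step was 3.32. Only genes that moved alike in at least 11 pairs, with a mean of at least 5 RPKM in the higher fraction of both cultures, were ranked. Predicted gene models were left out. Of 41 genes of the neuronal cytoskeleton and axonal transport, 38 rose, and of 88 genes of the cell cycle, 75 fell. Among all genes 9.55% rose and 8.66% fell. With a mean of at least 1 RPKM, 36 of 38 cytoskeleton genes rose, 77 of 88 cell cycle genes fell and 34.8% of all genes passed. The lists were chosen with earlier results of these data known, so list counts are descriptions. With samples in place of pairs, where the replicate is left out of the fit, 34 of the 41 rose and 35 of the 88 fell. There 7.65% of all genes passed. The genes whose oculomotor and spinal steps both passed, with a variance pooled over the cultures, were 21 of the cytoskeleton and 0 of the cell cycle list. Among all genes 0.857% rose and 0.424% fell in both, so the 0 lies near the share of all genes. With a pair left out the 21 became 2 to 32. The median step of pluripotency genes was -2.91 in the oculomotor and 0.42 in the spinal culture. Spinal pair 4 showed almost none of the step that the other 11 pairs showed.

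Levels are RPKM, reads scaled to transcript length and library depth, as the authors deposited them. The step of a gene is the difference of log2(RPKM + 1), GFP-positive minus GFP-negative, within a pair. Its mean over the 6 pairs of a culture is that culture's step, and the mean of the oculomotor and the spinal step is the shared step. A shared step can thus pass where the step of a culture does not. A gene passed the test where the limma p value, adjusted over all 22179 genes tested, was under 0.05. The shared, oculomotor and spinal steps were all tested in the same fit, with a residual variance pooled over both cultures. The offset of 1 RPKM makes the step of a gene near or below 1 RPKM smaller than its fold change. Fewer cells of a type and less RNA per cell cannot be told apart in these bulk samples, and the labels do not say whether replicates came from separate cultures, which the p values assume. Levels of a group are given as its lowest, median and highest sample, in this order.

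Depth was estimated from the RPKM values, since the table holds no read counts. The estimates ran from 752529 mapped reads in spinal GFP-negative sample 3 to 7675428 in spinal GFP-positive sample 6. Replicates 1 to 4 of all groups lay between 752529 and 4642207 reads and replicates 5 and 6 between 4822576 and 7675428, so that both fractions of a pair came from the same depth range.

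Spinal pair 4 stood apart from the other pairs. Over 4375 genes with a mean of at least 10 RPKM, its fractions correlated with r = 0.964 across genes, against 0.754 to 0.872 in the other 11 pairs, and 28 genes differed more than 4-fold between its fractions, against 193 to 548. The SD of its differences was 0.461, against 0.965 to 1.33. Its differences correlated with the mean of the other 5 spinal pairs with r = 0.00433 across 11951 genes. Each other spinal pair, set against the rest of the spinal pairs, gave 0.366 to 0.571. The oculomotor pairs, each set against the other 5 oculomotor pairs, gave 0.716 to 0.853. The reporter gene *Mnx1* was at 43.1 RPKM in the library labelled GFP-positive and at 69.4 RPKM in the library labelled GFP-negative. *Isl1* was at 7.63 against 8.56 RPKM and the neuronal tubulin *Tubb3* at 36.5 against 51.5 RPKM, so these markers were lower in the library labelled GFP-positive. Both libraries of the pair held the pluripotency gene *Pou5f1*, at 31.5 and 50.3 RPKM, and *Sox2* at 132 and 138 RPKM. Of the 2184 genes that rose when this pair was left out, 958 were higher and 1152 lower in its GFP-positive library, with a median difference of -0.03. Of the 1854 genes that then fell, 729 were higher and 1057 lower, with a median of -0.06. The pair thus shows neither direction of the shared step. Counts and medians of most lists are given with and without it. Values of single genes hold all 12 pairs unless stated. Of the 126 genes chosen for naming, 124 kept their call of the shared step without the pair and 2 lost it.

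Spinal GFP-negative sample 2 also stood apart. In it 3 predicted gene models held 68.8% of the summed RPKM, against 17.8% in its GFP-positive partner, 5.44% in spinal GFP-negative sample 6 and 1.67% or less in the other 21 samples. The RPKM of that library summed to 822728, against 390141 to 538830 in the other 23. Without spinal pair 2 the shared step passed in 4049 genes, 1995 of them higher and 2054 lower. Of the 126 genes chosen for naming, 4 then lost their call of the shared step, among them *Tal2*, *Gata3* and *Ddit3*. The difference of the step between the cultures then passed in 418 genes. Named genes for which it no longer passed include *Nefm*, *Nefl*, *Rbp4*, *Ncam1*, *Cdca7* and *Sox2*, with adjusted p from 0.0608 to 0.0899.

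*Isl1* (chromosome 13, 116298281 to 116309689, minus strand, GRCm38), whose promoter drives GFP in the oculomotor line, encodes a LIM homeodomain factor that motor neurons need to form. In the oculomotor culture its levels were 141, 245 and 369 RPKM in the GFP-positive and 0.696, 1.11 and 1.87 in the GFP-negative samples. In the spinal culture they were 7.63, 79.8 and 123 RPKM in the GFP-positive and 0.392, 6.30 and 9.10 in the GFP-negative samples. Each oculomotor GFP-positive sample lay above each GFP-negative one, and the spinal fractions overlapped through pair 4 alone. The shared step was 5.05 (SE 0.34, adjusted p = 1.22e-05, higher in 11 of 12 pairs, all but spinal pair 4), and 5.40 (adjusted p = 1.74e-08) without spinal pair 4. The rise was larger in the oculomotor culture (difference 3.47, adjusted p = 0.0198). Since GFP follows this gene in the oculomotor line, its oculomotor step describes the sort, while its spinal step was measured under the other reporter.

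*Mnx1* (chromosome 5, 29473034 to 29478470) drives GFP in the spinal line and encodes a homeodomain factor of spinal motor neurons. Spinal levels were 43.1, 97.3 and 149 RPKM in the GFP-positive and 0.189, 4.19 and 69.4 in the GFP-negative samples. The highest GFP-negative value was that of pair 4, and without it the fractions did not overlap. Oculomotor levels were 0.0696, 2.23 and 6.91 RPKM in the GFP-positive and 0, 0.227 and 0.988 in the GFP-negative samples. These are low and overlap, in a culture whose sort did not use this gene. Since GFP follows *Mnx1* in the spinal line, its spinal step of 4.02 describes the sort. The shared step was 2.57 (SE 0.50, adjusted p = 0.00352, higher in 11 of 12 pairs, all but spinal pair 4) and 3.04 (adjusted p = 7.27e-05) without spinal pair 4. The oculomotor step, 1.11, did not pass (adjusted p = 0.358, or 0.105 without spinal pair 4). The difference between the cultures did not pass either (-2.92, adjusted p = 0.166). Without spinal pair 4 that difference passed (-3.86, adjusted p = 0.00903), with the larger step in the spinal culture.

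**Figure D1:**
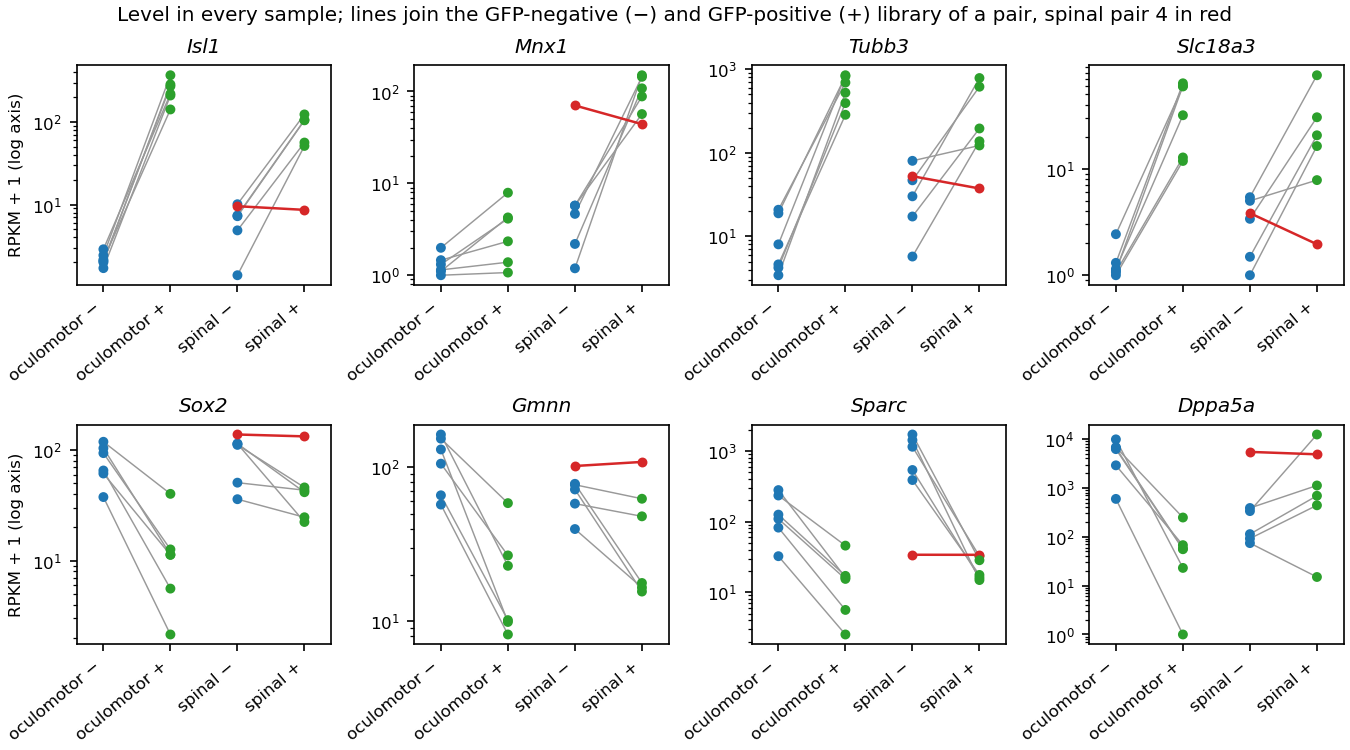
Level of 8 genes in each of the 24 samples as RPKM + 1 on a log axis, with GFP-negative samples in blue, GFP-positive samples in green, lines joining the fractions of a pair and spinal pair 4 in red. *Isl1*, *Tubb3* and *Slc18a3* rise along the lines of both cultures and *Sox2* and *Sparc* fall, while the red line is flat or runs against the others, and *Dppa5a* falls in the oculomotor pairs and rises in 4 spinal pairs.

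Over all genes, 4039 of 22179 (18.2%) passed the test of the shared step, 2118 (9.55%) of them higher and 1921 (8.66%) lower in GFP-positive cells. Without spinal pair 4 the numbers were 4038 (18.2%), 2184 (9.85%) and 1854 (8.36%), and 3704 genes passed in both fits. With values rescaled without mitochondrial genes and the 3 predicted gene models, 4038 genes passed, 2420 higher and 1618 lower. The step had the same sign in both cultures in 3827 of the 4039 genes (17.3% of all genes tested), and in 3838 without that pair (17.3%). Genes that rose had a median step of 1.10 in the oculomotor and 0.67 in the spinal culture, and genes that fell of -1.001 and -0.55. Spinal steps were thus smaller in the median in both directions, and without pair 4 the spinal medians were 0.80 and -0.71 against oculomotor medians of 1.06 and -0.98. A shared step beyond 1 in either direction was found for 1477 of the 4039 genes. Across 11951 genes the oculomotor and the spinal step correlated with r = 0.516 (Spearman's rho 0.509), and with r = 0.520 (0.514) without pair 4. The cultures share no sample, and genes are not independent replicates.

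A stricter count asks that the oculomotor and the spinal step of a gene both pass, in the same direction. Neither culture was fitted separately, and both steps take the pooled variance. For *Isl1* both SEs were 0.48, with SDs over pairs of 0.504 (oculomotor) and 1.805 (spinal). Leaving out a spinal pair therefore also moves the oculomotor p values. A step that passes on its own is meant in this sense. The oculomotor step passed in 3644 genes (16.4%) and the spinal step in 649 (2.93%), and 284 genes (1.28%) passed in both, 190 higher (0.857%) and 94 lower (0.424%) in GFP-positive cells. Without spinal pair 4 these numbers were 3632 (16.4%), 1202 (5.42%) and 598 (2.7%), with 408 higher (1.84%) and 190 lower (0.857%). Of the 284 genes, 283 were among the 598. The count moved with single pairs. It was 179, 156, 176, 176 and 157 without oculomotor pair 1, 2, 3, 5 or 6, and 65, 77, 61 and 58 without spinal pair 1, 2, 3 or 6. It was 202 and 240 without oculomotor pair 4 or spinal pair 5. The spinal count alone was 163, 185, 169, 460 and 153 without spinal pair 1, 2, 3, 5 or 6. Genes that pass in both cultures are therefore named below by their shared step, and the count of 284 is a description of this set of pairs. A difference of the step between the cultures passed in 453 genes (2.04%), and in 480 (2.16%) without spinal pair 4. Without other pairs this count ran from 220 (oculomotor pair 2) to 600 (spinal pair 3), and with samples in place of pairs it was 71. Of the 4039 genes with a shared step, 345 also differed between the cultures.

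With samples in place of pairs, which leaves the replicate out of the fit, 1697 genes passed, 1024 higher and 673 lower.

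Among the 126 genes chosen for naming, 22 differed between the cultures with all pairs and 28 without spinal pair 4. Without it the difference passed in addition for *Mnx1* and for 8 genes that fell more in the spinal culture. These were *Srgn* (2.83, adjusted p = 0.182 with and 3.87, adjusted p = 0.00213 without the pair), *Col4a1* (2.67, adjusted p = 0.213 and 3.77, adjusted p = 0.00066), *Sparc* (1.24, adjusted p = 0.538 and 2.14, adjusted p = 0.022), *Lamb1* (1.47, adjusted p = 0.479 and 2.36, adjusted p = 0.0333), *S100g* (2.43, adjusted p = 0.269 and 3.38, adjusted p = 0.0215), *Fst* (1.60, adjusted p = 0.438 and 2.48, adjusted p = 0.039), *Pdgfra* (1.72, adjusted p = 0.141 and 2.22, adjusted p = 0.0115) and *Sox17* (1.84, adjusted p = 0.0537 and 2.22, adjusted p = 0.00376). It no longer passed for *Ncam1* (2.28, adjusted p = 0.0499 and 1.91, adjusted p = 0.0642), *Cdca7* (-2.15, adjusted p = 0.0278 and -1.98, adjusted p = 0.0508) and *Sox2* (-1.98, adjusted p = 0.0465 and -1.79, adjusted p = 0.0821). With samples in place of pairs 7 of the 126 genes differed between the cultures, namely *Isl1*, *Nefm*, *Onecut2*, *Chrna3*, *St18*, *Ebf1* and *Elavl4*.

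The 12 largest rises, among genes present in both cultures and moving the same way in at least 11 of 12 pairs, included 8 genes of the cytoskeleton list, 1 identity factor, 1 synaptic and secretory gene and 2 genes of none of the 17 lists. *Nefm* and *Nefl* encode the medium and light neurofilament proteins, which fill large axons. *Nefl* levels were 215, 422 and 585 RPKM in the GFP-positive and 0.723, 2.01 and 3.61 in the GFP-negative samples of the oculomotor culture, and 10.2, 192 and 384 RPKM in the GFP-positive and 2.36, 10 and 58.1 in the GFP-negative samples of the spinal culture. For *Nefl* the oculomotor fractions were apart and the spinal fractions overlapped. *Nefm* stood at 65.7, 296 and 337 RPKM in the GFP-positive and 0.418, 0.681 and 0.966 in the GFP-negative samples of the oculomotor culture and at 10.1, 97.5 and 278 RPKM in the GFP-positive and 1.84, 6.29 and 23.7 in the GFP-negative samples of the spinal culture. Its spinal fractions overlapped through pair 4 alone. The shared steps were 5.12 (SE 0.41, adjusted p = 2.18e-05, higher in 12 of 12 pairs) for *Nefm* and 5.00 (SE 0.42, adjusted p = 2.68e-05, higher in 12 of 12 pairs) for *Nefl*. Both were larger in the oculomotor culture, by 3.96, adjusted p = 0.025 and 3.94, adjusted p = 0.0295. Without spinal pair 2 neither difference passed (adjusted p = 0.0654 and 0.0678).

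*Tubb3* (chromosome 8) encodes the tubulin found in neurons. Its levels were 284, 608 and 848 RPKM in the GFP-positive and 2.43, 5.33 and 19.8 in the GFP-negative samples of the oculomotor culture. In the spinal culture they were 36.5, 166 and 785 RPKM in the GFP-positive and 4.74, 37.5 and 79.2 in the GFP-negative samples. The oculomotor fractions were apart, and the lowest spinal GFP-positive value was that of pair 4. The step was 4.47 (SE 0.42, adjusted p = 4.42e-05, higher in 11 of 12 pairs, all but spinal pair 4), and 4.79 (adjusted p = 5.93e-06) without pair 4. *Gap43*, a protein of growth cones, was at 266, 480 and 2140 RPKM in the GFP-positive and 2.52, 5.13 and 13.1 in the GFP-negative samples of the oculomotor culture. Spinal levels of *Gap43* were 8.23, 454 and 1454 RPKM in the GFP-positive and 13.6, 87.7 and 459 in the GFP-negative samples, so that the spinal fractions overlapped also without pair 4. Its step of 4.36 (SE 0.31, adjusted p = 1.22e-05, higher in 11 of 12 pairs, all but spinal pair 4) was larger in the oculomotor culture (4.92, adjusted p = 0.0017). *Ina*, which encodes alpha-internexin, a neurofilament partner, rose by 3.98 (SE 0.44, adjusted p = 0.000105, higher in 11 of 12 pairs, all but spinal pair 4), with no difference between the cultures that passed (1.75, adjusted p = 0.367).

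*Sst* had the largest of these rises. It encodes somatostatin, a neuropeptide. Oculomotor levels were 142, 351 and 2752 RPKM in the GFP-positive and 0, 0.672 and 2.08 in the GFP-negative samples, and spinal levels were 6.46, 67.3 and 227 RPKM in the GFP-positive and 0, 2.67 and 20 in the GFP-negative samples. The step was 6.14 (SE 0.56, adjusted p = 3.85e-05, higher in 12 of 12 pairs), and the spinal fractions were apart without pair 4. *Sncg*, which encodes gamma-synuclein, rose by 3.92 (SE 0.58, adjusted p = 0.000669, higher in 12 of 12 pairs). Its fractions overlapped in both cultures, with a lowest GFP-positive and a highest GFP-negative value of 1.38 and 2.02 RPKM in the oculomotor and 13.2 and 310 RPKM in the spinal culture. The secretory granule protein gene *Scg2* rose by 3.79 (SE 0.51, adjusted p = 0.000367, higher in 11 of 12 pairs, all but spinal pair 4). *Stmn4*, which encodes a stathmin that binds tubulin, rose by 3.82 (SE 0.51, adjusted p = 0.000347, higher in 11 of 12 pairs, all but spinal pair 4). *C1ql1*, a secreted protein that organises synapses, rose by 3.73 (SE 0.44, adjusted p = 0.000152, higher in 12 of 12 pairs) and *Tagln3*, a calponin relative of neurons, by 3.71 (SE 0.40, adjusted p = 0.000102, higher in 11 of 12 pairs, all but spinal pair 4). Spinal pair 4 showed differences from -0.89 for *Stmn4* to 0.70 for *Nefm* among the 12 genes.

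Of the 12 largest falls, 5 were those of genes of the endoderm, mesoderm and epithelial list, and 7 of genes of none of the 17 lists. *Sparc*, a collagen-binding glycoprotein of basement membranes, was at 1.53, 14.8 and 44.6 RPKM in the GFP-positive and 31.4, 116 and 278 in the GFP-negative samples of the oculomotor culture and at 13.9, 22 and 32.8 RPKM in the GFP-positive and 32.9, 838 and 1701 in the GFP-negative samples of the spinal culture. The spinal fractions of *Sparc* were apart, and pair 4 gave the lowest GFP-negative and the highest GFP-positive value. Its step was -3.90 (SE 0.44, adjusted p = 0.000119, lower in 12 of 12 pairs), and -4.36 (adjusted p = 5.7e-07) without pair 4. *Col4a1* encodes a chain of collagen IV, the network of basement membranes. Its oculomotor levels were 0.566, 3.83 and 9.64 RPKM in the GFP-positive and 9.56, 25.5 and 78 in the GFP-negative samples and its spinal levels 0.723, 2.85 and 6.98 RPKM in the GFP-positive and 3.03, 257 and 463 in the GFP-negative samples. The ranges overlapped in the oculomotor culture and, through pair 4 alone, in the spinal culture. *Col4a1* fell by -3.96 (SE 0.51, adjusted p = 0.000277, lower in 11 of 12 pairs, all but spinal pair 4). The laminin genes *Lamb1* and *Lama1*, whose proteins bind that network, fell by -3.60 (SE 0.45, adjusted p = 0.000248, lower in 11 of 12 pairs, all but spinal pair 4) and -3.30 (SE 0.33, adjusted p = 7.35e-05, lower in 12 of 12 pairs).

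*Krt8* and *Krt18* encode the keratins of simple epithelia. They fell by -3.51 (SE 0.48, adjusted p = 0.00038, lower in 11 of 12 pairs, all but spinal pair 4) and -3.47 (SE 0.45, adjusted p = 0.000317, lower in 11 of 12 pairs, all but spinal pair 4), and without pair 4 their spinal fractions were apart. *Krt18* was at 0.224, 1.70 and 8.94 RPKM in the GFP-positive and 7.55, 34.1 and 212 in the GFP-negative samples of the oculomotor culture and at 0.372, 4.50 and 12.5 RPKM in the GFP-positive and 4.37, 62.6 and 109 in the GFP-negative samples of the spinal culture. *Rbp4*, the plasma carrier of retinol made by liver and visceral endoderm, fell by -3.34 (SE 0.41, adjusted p = 0.000222, lower in 11 of 12 pairs, all but oculomotor pair 4), and less in the oculomotor than in the spinal culture (difference 3.56, adjusted p = 0.0454). *Srgn*, the proteoglycan core of secretory granules, fell by -4.16 (SE 0.50, adjusted p = 0.000184, lower in 12 of 12 pairs). *Pga5*, which encodes a pepsinogen, had the largest fall of the 12, with -4.56 (SE 0.54, adjusted p = 0.000152, lower in 12 of 12 pairs), and was at 0, 0.704 and 3.53 RPKM in the GFP-positive and 0.498, 248 and 332 in the GFP-negative samples of the spinal culture. *Spink1* encodes a trypsin inhibitor and fell by -4.12 (SE 0.62, adjusted p = 0.000705, lower in 11 of 12 pairs, all but spinal pair 2). The calcium-binding protein gene *S100g* fell by -3.45 (SE 0.51, adjusted p = 0.000654, lower in 11 of 12 pairs, all but spinal pair 4), and *Fst*, which encodes the activin-binding protein follistatin, by -3.28 (SE 0.46, adjusted p = 0.000423, lower in 11 of 12 pairs, all but spinal pair 4).

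Motor neuron identity factors, the reporter gene *Isl1* among them, rose as a group. Of 24 tested, 19 rose, 0 fell and 5 did not pass, with a median shared step of 1.40 (1.72 in the oculomotor and 0.79 in the spinal culture) against -0.01 over all genes. Without spinal pair 4, 20 rose and the median was 1.50. The list's median difference lay between 1.43 and 2.49 in the oculomotor pairs and between 0.24 and 1.44 in spinal pairs other than pair 4, where it was -0.11. *Lhx4*, a LIM homeodomain factor of young motor neurons, was at 9.81, 16.6 and 34.4 RPKM in the GFP-positive and 0, 0.0481 and 0.258 in the GFP-negative samples of the oculomotor culture. Spinal *Lhx4* levels were 2.63, 21.8 and 60.3 RPKM in the GFP-positive and 0, 1.43 and 3.32 in the GFP-negative samples, apart without pair 4. It rose by 3.51 (SE 0.32, adjusted p = 3.85e-05, higher in 11 of 12 pairs, all but spinal pair 4), and the difference between the cultures did not pass (1.06, adjusted p = 0.466). *Onecut2*, a factor that acts upstream of *Isl1* in motor neurons, was at 21.3, 37.2 and 69.6 RPKM in the GFP-positive and 0.434, 0.563 and 2.71 in the GFP-negative samples of the oculomotor culture and at 3.29, 6.63 and 36.7 RPKM in the GFP-positive and 1.72, 2.24 and 3.23 in the GFP-negative samples of the spinal culture. The fractions of *Onecut2* were apart in both cultures, pair 4 included. Its step was 2.99 (SE 0.26, adjusted p = 2.95e-05, higher in 12 of 12 pairs).

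*Isl2*, the close relative of *Isl1*, was low in all groups, with 0.891, 2.72 and 6.13 RPKM in the GFP-positive and 0, 0.222 and 0.785 in the GFP-negative samples of the oculomotor and 1.40, 4.76 and 9.48 RPKM in the GFP-positive and 0, 0.430 and 1.37 in the GFP-negative samples of the spinal culture. Its fractions were still apart in both cultures, with a step of 1.66 (SE 0.25, adjusted p = 0.000714, higher in 12 of 12 pairs). In total 8 of the 24 factors differed between the cultures, with or without pair 4. With another pair left out this count was 5 to 8, and without the replicate block 5. In each culture on its own 6 rose, or 7 without pair 4, 2 to 5 with another pair left out and 3 without the replicate block.

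The genes that make, store and sense acetylcholine rose in part. Of 18 tested, 9 rose, 1 fell and 8 did not pass, with a median step of 1.10 (1.15 in the oculomotor and 0.66 in the spinal culture) against -0.01 over all genes, and 1.10 with 11 passing without pair 4. *Chat*, the enzyme that makes acetylcholine, was at 1.29, 6.72 and 13.1 RPKM in the GFP-positive and 0, 0 and 0 in the GFP-negative samples of the oculomotor culture, and at 0.306, 2.70 and 8.22 RPKM in the GFP-positive and 0, 0.302 and 2.37 in the GFP-negative samples of the spinal culture. All 6 oculomotor GFP-negative samples were listed at 0 for *Chat*. It rose by 1.93 (SE 0.27, adjusted p = 0.000469, higher in 12 of 12 pairs). *Slc18a3*, the vesicular acetylcholine transporter, whose gene lies within the *Chat* locus, was at 10.8, 44.5 and 62.4 RPKM in the GFP-positive and 0, 0.121 and 1.43 in the GFP-negative samples of the oculomotor culture. Its spinal levels were 0.955, 17.5 and 74.5 RPKM in the GFP-positive and 0, 2.61 and 4.41 in the GFP-negative samples. They were apart without pair 4, and the step was 3.53 (SE 0.42, adjusted p = 0.000152, higher in 11 of 12 pairs, all but spinal pair 4). *Slc10a4*, a vesicle protein of cholinergic neurons, rose by 3.04 (SE 0.37, adjusted p = 0.000184, higher in 12 of 12 pairs), and the difference between the cultures did not pass (-0.52, adjusted p = 0.773).

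*Chrna3*, a nicotinic receptor subunit, rose by 2.41 (SE 0.27, adjusted p = 0.000119, higher in 10 of 12 pairs), and more in the oculomotor culture (difference 3.56, adjusted p = 0.00541). Its spinal step of 0.63 did not pass (adjusted p = 0.419). The choline transporter *Slc5a7* was near or below 1 RPKM in 3 of the 4 groups and did not pass, with a step of 0.52 (adjusted p = 0.0845). It passed with an offset of 0.1 RPKM. *Calca*, which encodes the neuropeptide CGRP, is the member that fell, by -1.30 (SE 0.33, adjusted p = 0.014, lower in 10 of 12 pairs). Its fractions overlapped in both cultures, and its call was lost when samples took the place of pairs (adjusted p = 0.134). The spinal step of *Calca*, -0.69, did not pass (adjusted p = 0.458).

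Transcription factors of postmitotic neurons showed 22 rises and 0 falls among 39 genes tested. Their median step was 0.84 (1.13 in the oculomotor and 0.55 in the spinal culture), or 0.96 with 22 passing without spinal pair 4, against -0.01 over all genes. *St18*, a zinc finger factor of the Myt1 family, was at 28.8, 43.1 and 51.4 RPKM in the GFP-positive and 0, 0.189 and 0.917 in the GFP-negative samples of the oculomotor culture and at 3.38, 10.6 and 25.6 RPKM in the GFP-positive and 0.914, 1.29 and 2.04 in the GFP-negative samples of the spinal culture. Its fractions were apart in both cultures, pair 4 included, and it rose in 12 of 12 pairs. The step of *St18* was 3.62 (adjusted p = 2.18e-05). *Nhlh2*, a helix-loop-helix factor of young neurons, rose by 3.34 (SE 0.39, adjusted p = 0.000145, higher in 11 of 12 pairs, all but spinal pair 4). *Ebf1*, which acts in early neuronal differentiation, rose by 3.28 (SE 0.26, adjusted p = 2.2e-05, higher in 10 of 12 pairs), with steps of 5.40 in the oculomotor and 1.16 in the spinal culture that differed (adjusted p = 0.0017). The spinal step of *Ebf1* did not pass on its own (adjusted p = 0.117).

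Neuronal RNA-binding proteins and chromatin subunits, with the general forms they replace, gave 21 rises, 1 fall and 11 genes that did not pass among 33 tested. The median step was 0.85 (1.10 in the oculomotor and 0.75 in the spinal culture), and 0.96 with 22 passing without pair 4, against -0.01 over all genes. The neuronal Hu proteins bind RNA elements rich in U and are early marks of a neuron. *Elavl4* was at 184, 207 and 272 RPKM in the GFP-positive and 4.05, 5.42 and 9.77 in the GFP-negative samples of the oculomotor culture. Its spinal levels were 13.9, 108 and 154 RPKM in the GFP-positive and 10.8, 15.5 and 36.4 in the GFP-negative samples. *Elavl4* fractions were apart in the oculomotor culture and, without pair 4, in the spinal culture. The steps were 3.55 (SE 0.27, adjusted p = 1.91e-05, higher in 12 of 12 pairs) for *Elavl4*, 2.83 (SE 0.22, adjusted p = 2.18e-05, higher in 11 of 12 pairs, all but spinal pair 4) for *Elavl3* and 2.40 (SE 0.26, adjusted p = 0.000104, higher in 11 of 12 pairs, all but spinal pair 4) for *Elavl2*. *Elavl4* and *Elavl3* rose more in the oculomotor culture (2.83, adjusted p = 0.0179 and 2.80, adjusted p = 0.00737), and for *Elavl2* the difference did not pass (0.25, adjusted p = 0.855). *Rest*, the repressor of neuronal genes in other cells, fell, from 9.54, 20.8 and 28.8 to 0.421, 1.82 and 4.60 RPKM in the oculomotor culture. Spinal *Rest* levels were 0.720, 6.83 and 29.8 RPKM in the GFP-positive and 8.18, 10.7 and 31 in the GFP-negative samples, with the highest value of each fraction in pair 4. The shared step was -1.84 (SE 0.27, adjusted p = 0.000655, lower in 11 of 12 pairs, all but spinal pair 5). The spinal step of *Rest*, -0.85, did not pass (adjusted p = 0.277).

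Of the subunits that are exchanged, the neuronal forms named here rose and no progenitor form passed. *Actl6b*, the neuronal form of an actin-related subunit of BAF chromatin remodelling complexes, rose by 1.74 (SE 0.34, adjusted p = 0.00346, higher in 11 of 12 pairs, all but spinal pair 4), while its progenitor form *Actl6a* had a step of 0.31 (adjusted p = 0.322) that did not pass. *Dpf1* and *Dpf3*, the neuronal forms of another BAF subunit, rose by 1.57 (SE 0.25, adjusted p = 0.00113, higher in 10 of 12 pairs) and 0.83 (SE 0.21, adjusted p = 0.0156, higher in 10 of 12 pairs). The forms found in progenitors, *Phf10* and *Dpf2*, had steps of -0.39 (adjusted p = 0.264) and 0.31 (adjusted p = 0.29), which did not pass. *Ss18l1*, the neuronal partner of *Ss18*, rose by 1.38 (SE 0.30, adjusted p = 0.00692, higher in 11 of 12 pairs, all but spinal pair 4), against -0.20 (adjusted p = 0.406) for *Ss18*. The splicing repressor pair followed the same form: *Ptbp2*, used in young neurons, rose by 0.74 (SE 0.16, adjusted p = 0.00773, higher in 12 of 12 pairs), and *Ptbp1*, used in progenitors, had a step of -0.28 (adjusted p = 0.433). *Ptbp2* did not pass when samples took the place of pairs (adjusted p = 0.086). In each of the 4 exchanges the neuronal form passed and the progenitor form did not, and a p above the threshold does not show that the progenitor forms were equal in the fractions.

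*Actl6b* stood at 1.26, 2.55 and 7.46 RPKM in the GFP-positive and 0, 0.0189 and 0.165 in the GFP-negative samples of the oculomotor culture, so that the rise of the subunit began from near 0. *Actl6a* levels were 1.64, 10.5 and 30.2 RPKM in the GFP-positive and 1.53, 13.1 and 29.9 in the GFP-negative samples there, and the fractions overlapped.

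The neuronal cytoskeleton and axonal transport list had the largest median shared step of the 17 lists at the offset of 1 RPKM. At an offset of 0.1 RPKM the endoderm list had a larger one (-2.66 against 2.44). Of 41 genes, 38 rose and 0 fell, with a median step of 2.07 (2.62 in the oculomotor and 1.59 in the spinal culture) against -0.01 over all genes. Without pair 4 the median was 2.27 with 38 passing. In both cultures, each on its own, 21 rose, or 32 without pair 4, 2 to 19 with another pair left out and 10 without the replicate block. The summed level of the list was 9023, 10760 and 12380 RPKM in the oculomotor GFP-positive samples against 1124, 1942 and 3190 in the GFP-negative ones. In the spinal culture it was 1148, 7991 and 20560 against 794, 2464 and 3996. The alpha-tubulin gene Tuba1a was its most abundant member. Oculomotor sums were apart between the fractions, and spinal sums overlapped, with 1148 and 1426 RPKM in the GFP-positive and GFP-negative library of pair 4. *Stmn2*, a stathmin of growing axons, was at 167, 174 and 305 RPKM in the GFP-positive and 7.74, 21.8 and 38 in the GFP-negative samples of the oculomotor and at 9.91, 144 and 274 RPKM in the GFP-positive and 2.74, 7.87 and 60.5 in the GFP-negative samples of the spinal culture. It rose by 3.10 (SE 0.42, adjusted p = 0.000386, higher in 11 of 12 pairs, all but spinal pair 4), with steps of 3.25 in the oculomotor and 2.94 in the spinal culture. *Prph*, the peripheral neuron intermediate filament peripherin, rose by 2.17 (SE 0.33, adjusted p = 0.000696, higher in 11 of 12 pairs, all but spinal pair 4), and *Map2*, a microtubule protein of dendrites, by 2.07 (SE 0.29, adjusted p = 0.000444, higher in 11 of 12 pairs, all but spinal pair 4).

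Synaptic and secretory genes gave 42 rises and 0 falls among 54 tested, with a median step of 1.23 (1.29 in the oculomotor and 0.99 in the spinal culture), and 1.33 with 43 passing without spinal pair 4, against -0.01 over all genes. Of these, 15 rose in each culture on its own, or 23 without pair 4, 2 to 12 with another pair left out and 1 without the replicate block. *Snap25*, a protein of the vesicle fusion complex, was at 13.9, 25.1 and 62.7 RPKM in the GFP-positive and 0, 0.513 and 0.641 in the GFP-negative samples of the oculomotor culture, and at 0.980, 14.1 and 44.8 RPKM in the GFP-positive and 0.391, 3.11 and 14.8 in the GFP-negative samples of the spinal culture. It rose by 3.02 (SE 0.30, adjusted p = 6.42e-05, higher in 11 of 12 pairs, all but spinal pair 4). The granule protein *Scg3* was at 31.3, 58.8 and 63.3 RPKM in the GFP-positive and 0.892, 1.24 and 1.62 in the GFP-negative samples of the oculomotor culture. Its spinal levels were 3.37, 49.6 and 72.4 RPKM in the GFP-positive and 1.94, 11.4 and 27.7 in the GFP-negative samples, which overlap. *Scg3* rose by 3.10 (SE 0.22, adjusted p = 1.22e-05, higher in 11 of 12 pairs, all but spinal pair 4), and *Syt4*, a synaptotagmin of young neurons, by 3.54 (SE 0.36, adjusted p = 7.41e-05, higher in 11 of 12 pairs, all but spinal pair 4). *Scg3* and *Snap25* rose more in the oculomotor culture (2.85, adjusted p = 0.00555 and 2.84, adjusted p = 0.0293), a difference that passed for neither with samples in place of pairs (adjusted p = 0.174 and 0.291), and for *Syt4* and *Scg2* the difference did not pass (1.95, adjusted p = 0.193 and 1.62, adjusted p = 0.488).

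Among 42 genes of voltage-gated channels tested, 22 rose and 0 fell. Their median step was 0.53 (0.71 in the oculomotor and 0.51 in the spinal culture) against -0.01 over all genes, and 0.56 with 23 passing without pair 4. This median depends on the offset, and 20 of the 42 genes had a mean under 1 RPKM. At an offset of 0.1 RPKM it was 1.30, with 21 passing. *Scn3a*, a sodium channel of the embryonic brain, was at 3.60, 8.54 and 13.6 RPKM in the GFP-positive and 0.0259, 0.101 and 0.280 in the GFP-negative samples of the oculomotor culture, and rose by 2.33 (SE 0.30, adjusted p = 0.000304, higher in 11 of 12 pairs, all but spinal pair 4). *Cacna2d1*, a subunit that brings calcium channels to the surface, rose by 2.30 (SE 0.27, adjusted p = 0.000148, higher in 11 of 12 pairs, all but spinal pair 4). *Cacna1b*, the pore of the N-type calcium channel that triggers transmitter release, was at 3.12, 5.70 and 12.4 RPKM in the GFP-positive and 0.0626, 0.539 and 1.64 in the GFP-negative samples of the oculomotor and at 1.52, 5.11 and 9.53 RPKM in the GFP-positive and 0.413, 1.15 and 1.60 in the GFP-negative samples of the spinal culture. Its step was 1.83 (SE 0.21, adjusted p = 0.000142, higher in 12 of 12 pairs). Its spinal fractions were apart without pair 4.

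Of 60 axon guidance and adhesion genes tested, 31 rose, 3 fell and 26 did not pass. Among all genes 9.55% rose and 8.66% fell. Without the replicate block 24 of the list rose and 0 fell. The median step of the list was 0.57 (0.81 in the oculomotor and 0.37 in the spinal culture) against -0.01 over all genes. Without pair 4 it was 0.63 with 34 passing. *Cntn2*, an axonal adhesion protein of early motor axons, rose by 3.21 (SE 0.36, adjusted p = 0.000124, higher in 11 of 12 pairs, all but spinal pair 4). The adhesion protein *Ncam1* was at 58.1, 115 and 134 RPKM in the GFP-positive and 1.72, 5.55 and 11.6 in the GFP-negative samples of the oculomotor culture. Spinal *Ncam1* levels were 13.4, 142 and 265 RPKM in the GFP-positive and 9.34, 29.4 and 75.3 in the GFP-negative samples, which overlap, and the step was 2.90 (SE 0.27, adjusted p = 4.39e-05, higher in 11 of 12 pairs, all but spinal pair 4). The genes that fell were *Sema5b*, a semaphorin, by -1.01 (adjusted p = 0.0135), the netrin receptor *Unc5b* by -0.84 (adjusted p = 0.0176) and the ephrin *Efnb1* by -0.62 (adjusted p = 0.0295). Each was lower in 10 of 12 pairs, and the fractions of all 3 overlapped in both cultures. Their oculomotor steps of -1.31, -1.60 and -0.80 passed. Their spinal steps of -0.70, -0.07 and -0.44 did not (adjusted p = 0.322, 0.926 and 0.393). The calls of the shared step were lost when samples took the place of pairs, with adjusted p = 0.0627, 0.0934 and 0.464.

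**Figure D2:**
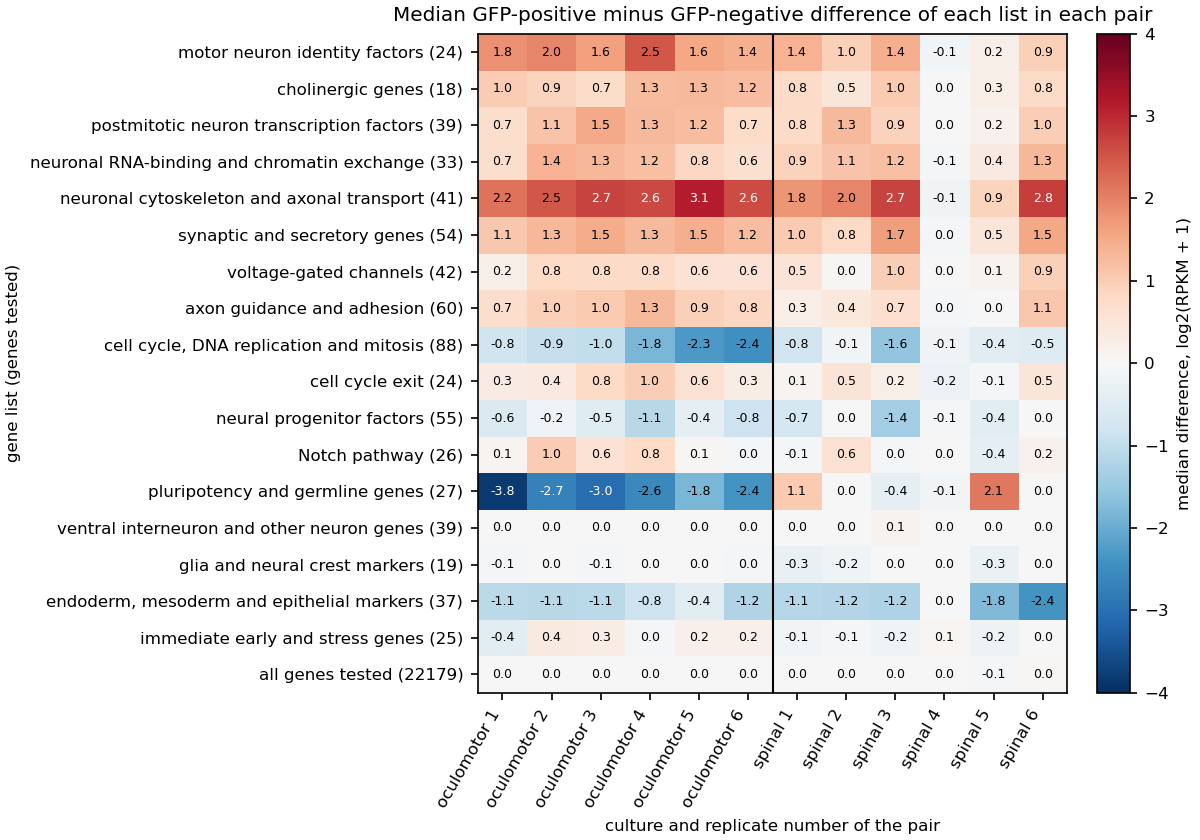
Median difference of log2(RPKM + 1), GFP-positive minus GFP-negative, of each of the 17 gene lists and of all genes tested, in each of the 12 pairs, with red above 0 and blue below. The neuronal lists, apart from that of ventral interneurons and other neurons, are above 0 in the oculomotor pairs and in spinal pairs 1, 3 and 6. In the same pairs the cell cycle list is below 0. Spinal pair 4 is near 0 in all lists, and the pluripotency list is below 0 in all oculomotor pairs and above 1 in spinal pairs 1 and 5.

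Genes of the cell cycle, DNA replication and mitosis fell together. Of 88 tested, 75 fell, 0 rose and 13 did not pass, with a median step of -1.12 (-1.59 in the oculomotor and -0.62 in the spinal culture) against -0.01 over all genes. Without pair 4, 75 fell with a median of -1.17. With samples in place of pairs 35 of the 88 passed, and within replicates 1 to 4 alone 29. The median was below 0 in 12 of 12 pairs, from -2.45 to -0.80 in the oculomotor and from -1.58 to -0.10 in the spinal culture. Summed over the list, levels were 493, 862 and 2488 RPKM in the oculomotor GFP-positive samples and 2010, 3155 and 4298 in the GFP-negative samples. Spinal sums were 592, 1579 and 3570 and 1395, 1957 and 3909, with the highest of both fractions in pair 4. The sums overlapped in both cultures. The chromatin protein gene Hmgb2 was the most abundant member. In the spinal culture the median fall was thus smaller. In both cultures, each on its own, 0 genes of the list passed, or 1 without pair 4. Among all genes 0.424% fell in each culture, or 0.857% without pair 4, so these counts lie near the share of all genes. A difference between the cultures passed for 5 members, or 2 without pair 4. Leaving out other pairs gave 1 to 11 members, and samples in place of pairs gave 0.

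*Gmnn*, the inhibitor of replication licensing that marks S to M phase, was at 7.21, 15.5 and 57.5 RPKM in the GFP-positive and 56.2, 117 and 162 in the GFP-negative samples of the oculomotor culture. Spinal *Gmnn* levels were 14.6, 31.9 and 107 RPKM in the GFP-positive and 38.7, 73.4 and 101 in the GFP-negative samples. The fractions overlapped in both cultures, and the step was -1.79 (SE 0.24, adjusted p = 0.000335, lower in 11 of 12 pairs, all but spinal pair 4). *Mki67*, the usual mark of cycling cells, was at 2.35, 9.38 and 24.8 RPKM in the GFP-positive and 18.3, 28.6 and 50.5 in the GFP-negative samples of the oculomotor and at 4.16, 19.9 and 41.5 RPKM in the GFP-positive and 15.8, 39.3 and 53 in the GFP-negative samples of the spinal culture, and fell by -1.39 (SE 0.26, adjusted p = 0.00283, lower in 12 of 12 pairs). GFP-positive cells of both cultures thus still held *Mki67* RNA. *Mybl2*, a driver of G2 and M genes, fell by -1.77 (SE 0.24, adjusted p = 0.000341, lower in 10 of 12 pairs), and *Cdca7*, a chromatin protein of dividing cells, by -1.75 (SE 0.23, adjusted p = 0.00028, lower in 10 of 12 pairs). For both the fall was larger in the oculomotor culture (-2.63, adjusted p = 0.0122 and -2.15, adjusted p = 0.0278), which for *Cdca7* did not pass without pair 4. The spinal steps of *Gmnn*, *Mybl2* and *Cdca7*, -1.015, -0.45 and -0.67, did not pass (adjusted p = 0.131, 0.5 and 0.292). *Mybl2* did not pass when samples took the place of pairs (adjusted p = 0.0658).

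Many genes of the G2 and M phases carry in their promoters the element TTTGAA, known as the CHR, which binds the DREAM complex and its activating forms, and CCAAT boxes, which bind NF-Y. RefSeq promoters of 250 bases before the start (GRCm38.p6) were searched for both motifs on both strands, and the 2 can share a T. Of the 88 genes of the cell cycle list, 72 matched a promoter. TTTGAA was found in 20 of them (27.8%), against 4934 of 27025 symbols (18.3%), and CCAAT in 51 (70.8%), against 10133 (37.5%). Both were found in 18 (25%), against 1744 (6.45%). Of these 18 genes, 16 fell, beside 75 of the 88 in the list. In the other 16 lists TTTGAA was in 4% (cytoskeleton) to 30.8% of promoters, with 30.8% in the synaptic and in the endoderm list, above the cell cycle list. CCAAT was in 23.5% (cholinergic genes) to 62.5% (cell cycle exit), and both motifs in 0% to 9.09% (glia and neural crest). A match is a description of letters and was not tested as a binding site.

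Promoters of 3 genes that fell and hold both motifs are shown because they let the letters be read beside the values. *Ccnb2* encodes a B-type cyclin of mitosis, and *Cdc20* the activator of the complex that ends mitosis. *Ccnb2* fell by -1.64 (SE 0.29, adjusted p = 0.00206, lower in 11 of 12 pairs, all but spinal pair 6), *Mki67* by -1.39 (adjusted p = 0.00283) and *Cdc20* by -1.37 (SE 0.28, adjusted p = 0.00413, lower in 10 of 12 pairs). *Ccnb2* did not pass when samples took the place of pairs (adjusted p = 0.0687). The runs read 5′ to 3′ on the minus strand, at chr9:70421555-70421804, chr7:135716380-135716629 and chr4:118437344-118437593, and capitals mark TTTGAA and CCAAT or their reverse complements. They hold 1, 2 and 1 copies of TTTGAA and 3, 3 and 2 of CCAAT.
*Ccnb2*: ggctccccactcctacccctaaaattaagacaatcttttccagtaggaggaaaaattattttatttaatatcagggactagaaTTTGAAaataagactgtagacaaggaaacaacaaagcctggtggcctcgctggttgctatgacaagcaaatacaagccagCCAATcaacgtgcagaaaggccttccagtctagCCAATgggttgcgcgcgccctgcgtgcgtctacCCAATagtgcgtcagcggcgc
*Mki67*: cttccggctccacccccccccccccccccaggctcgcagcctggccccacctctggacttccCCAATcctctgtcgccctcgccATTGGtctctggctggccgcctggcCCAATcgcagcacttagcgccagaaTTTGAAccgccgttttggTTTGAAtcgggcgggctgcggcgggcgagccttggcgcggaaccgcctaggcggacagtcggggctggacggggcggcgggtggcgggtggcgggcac
*Cdc20*: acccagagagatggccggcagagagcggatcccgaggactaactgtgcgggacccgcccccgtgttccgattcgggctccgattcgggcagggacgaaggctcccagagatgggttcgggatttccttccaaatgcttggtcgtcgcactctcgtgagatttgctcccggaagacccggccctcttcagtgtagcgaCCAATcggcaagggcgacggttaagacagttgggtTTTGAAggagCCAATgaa

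Genes of cell cycle exit gave 9 rises, 1 fall and 14 genes that did not pass among 24, with a median step of 0.30 (0.53 in the oculomotor and 0.11 in the spinal culture) against -0.01 over all genes, and 0.33 with 9 passing without pair 4. *Cdk5r1*, the activator of the neuronal kinase Cdk5, was at 8.55, 12.8 and 31.6 RPKM in the GFP-positive and 0.249, 0.744 and 1.78 in the GFP-negative samples of the oculomotor culture. It was at 2.21, 15.2 and 45.5 RPKM in the GFP-positive and 1.58, 3.68 and 7.22 in the GFP-negative samples of the spinal culture. *Cdk5r1* rose by 2.34 (SE 0.25, adjusted p = 9.01e-05, higher in 12 of 12 pairs). *Gadd45g*, a growth arrest gene switched on as neurons are born, was at 80, 188 and 383 RPKM in the GFP-positive and 8.20, 17.4 and 82.2 in the GFP-negative samples of the oculomotor culture and rose by 1.95 (SE 0.35, adjusted p = 0.00219, higher in 10 of 12 pairs). Its relative *Gadd45b* fell, by -1.25 (SE 0.31, adjusted p = 0.013, lower in 12 of 12 pairs), and did not pass when samples took the place of pairs (adjusted p = 0.231). The spinal steps of *Gadd45g* and *Gadd45b*, 0.90 and -0.68, did not pass (adjusted p = 0.369 and 0.446). *Trp53inp2*, an autophagy protein, rose by 1.72 (SE 0.24, adjusted p = 0.000436, higher in 10 of 12 pairs). The list's median was below 0 in spinal pairs 4 and 5, at -0.22 and -0.06.

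Neural progenitor factors fell in part. Of 55 tested, 23 fell, 1 rose and 31 did not pass, with a median step of -0.50 (-0.64 in the oculomotor and -0.46 in the spinal culture) against -0.01 over all genes, and -0.57 with 24 passing without pair 4. *Sox2* keeps progenitors undifferentiated. Its levels were 1.14, 10.3 and 39.2 RPKM in the GFP-positive and 36.6, 78.7 and 118 in the GFP-negative samples of the oculomotor culture. In the spinal culture they were 21.4, 41.5 and 132 RPKM in the GFP-positive and 35, 112 and 138 in the GFP-negative samples. The fractions overlapped in both cultures, and yet each of the 12 pairs was lower in GFP-positive cells. *Sox2* fell by -1.98 (SE 0.23, adjusted p = 0.000151, lower in 12 of 12 pairs), more in the oculomotor culture (-1.98, adjusted p = 0.0465), though that difference did not pass without pair 4. *Foxa2*, a factor of floor plate and endoderm, was at 1.25, 4.96 and 14 RPKM in the GFP-positive and 8.29, 29.5 and 41.6 in the GFP-negative samples of the oculomotor and at 1.51, 2.23 and 14.1 RPKM in the GFP-positive and 1.39, 29.6 and 47.3 in the GFP-negative samples of the spinal culture, and fell by -2.13 (SE 0.31, adjusted p = 0.000543, lower in 11 of 12 pairs, all but spinal pair 4). *Cdh1*, the epithelial cadherin, fell by -1.97 (SE 0.29, adjusted p = 0.000649, lower in 11 of 12 pairs, all but spinal pair 5). The member that rose was *Id2*, an inhibitor of helix-loop-helix factors, by 0.96 (SE 0.25, adjusted p = 0.0189, higher in 10 of 12 pairs).

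Other usual progenitor markers did not pass. *Sox1* had a step of -0.58 (adjusted p = 0.181), *Nes*, the nestin gene, of -0.41 (adjusted p = 0.396), and *Hes5*, a Notch target, of -0.90 (adjusted p = 0.13). *Olig2*, the factor of motor neuron progenitors, stood at 1.53, 15.8 and 45.2 RPKM in the GFP-positive and 1.16, 6.72 and 45.3 in the GFP-negative samples of the spinal culture. Its oculomotor levels were 0.238, 0.916 and 5.46 RPKM in the GFP-positive and 0.265, 1.67 and 11.7 in the GFP-negative samples. The fractions of *Olig2* overlapped in both cultures and its step was 0.01 (adjusted p = 0.978). The fall of *Sox2* was not shared by *Sox1* and *Nes* at the threshold used.

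Of 26 genes of the Notch pathway tested, 8 rose, 2 fell and 16 did not pass. Among all genes 9.55% rose and 8.66% fell. The median step of the list was 0.15 (0.32 in the oculomotor and 0.03 in the spinal culture) against -0.01 over all genes. Without the replicate block 3 rose and 1 fell. Without pair 4, 9 rose and 4 fell. The effector *Hes1*, a repressor that Notch switches on in progenitors, was at 5.40, 13.9 and 33.5 RPKM in the GFP-positive and 41.1, 102 and 182 in the GFP-negative samples of the oculomotor culture. Spinal *Hes1* levels were 1.05, 13.8 and 62.1 RPKM in the GFP-positive and 29.3, 58.9 and 184 in the GFP-negative samples, apart without pair 4. *Hes1* fell by -2.40 (SE 0.38, adjusted p = 0.000995, lower in 12 of 12 pairs), with steps of -2.66 and -2.14 in the cultures. The receptor *Notch2* fell by -1.49 (SE 0.35, adjusted p = 0.00945, lower in 10 of 12 pairs), a call that was lost when samples took the place of pairs (adjusted p = 0.225). Among the 8 members that rose was *Dll3*, a ligand that dampens Notch within its own cell. In the oculomotor culture *Dll3* was at 9.83, 34.6 and 88 RPKM in the GFP-positive and 1.02, 1.32 and 6.76 in the GFP-negative samples. It rose by 2.52 (SE 0.36, adjusted p = 0.000523, higher in 11 of 12 pairs, all but spinal pair 5). *Mfng*, which adds sugars to Notch, rose by 1.93 (SE 0.31, adjusted p = 0.00111, higher in 10 of 12 pairs), and the ligand-like *Dlk1* by 1.92 (SE 0.30, adjusted p = 0.000978, higher in 10 of 12 pairs).

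Pluripotency genes are the group in which the shared step describes neither culture. Of 27 tested, 19 fell, 0 rose and 8 did not pass, with a median shared step of -1.20, against -0.01 over all genes. The median was -2.91 in the oculomotor and 0.42 in the spinal culture, and 15 of the 27 differed between the cultures. Without pair 4, 17 fell, the spinal median was 0.64 and 15 differed. None differed with samples in place of pairs (0 of 27). The list's median ran from -3.82 to -1.83 in the oculomotor and from -0.36 to 2.10 in the spinal pairs, with spinal pairs 1 and 5 above 1. Summed levels were 62, 131 and 311 RPKM in the oculomotor GFP-positive and 936, 6790 and 10100 in the GFP-negative samples, and 31.5, 1015 and 12970 and 207, 348 and 6692 in the spinal samples. *Dppa5a*, a gene of embryonic stem cells, was the most abundant member.

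*Dppa5a* levels were 0, 55.4 and 246 RPKM in the GFP-positive and 593, 6336 and 9806 in the GFP-negative samples of the oculomotor culture. Spinal levels were 14, 902 and 12330 RPKM in the GFP-positive and 73, 223 and 5434 in the GFP-negative samples. The oculomotor fractions were apart and the spinal fractions overlapped, with the highest value in a GFP-positive sample. The steps were -6.96 and 1.52, and they differed (adjusted p = 0.00217). Its shared step of -2.72 (adjusted p = 0.00467) was lost when samples took the place of pairs (adjusted p = 0.0942). *Nanog*, a core factor of pluripotency, had steps of -4.05 and 1.66 that differed (adjusted p = 0.000788), and *Zfp42* of -3.98 and -0.48 (adjusted p = 0.00577). *Pou5f1* passed at -1.24 (adjusted p = 0.0408) and no longer without pair 4, at -1.13 (adjusted p = 0.0793). Without the pair as a block, the shared steps of *Nanog* and *Pou5f1* did not pass (adjusted p = 0.402 and 0.318), nor did the difference between the cultures for *Dppa5a*, *Nanog*, *Zfp42* and *Pou5f1* (adjusted p = 0.0571, 0.114, 0.288 and 0.509). *Klf4*, a factor of stem cells and of epithelia, moved the same way in both cultures, by -2.16 and -2.58, with a shared step of -2.37 (SE 0.38, adjusted p = 0.0011, lower in 12 of 12 pairs). *L1td1*, an RNA-binding protein of stem cells, fell by -2.26 (SE 0.40, adjusted p = 0.00182, lower in 10 of 12 pairs). The median of the summed levels was higher in the spinal than in the oculomotor GFP-positive samples, while spinal GFP-positive sample 3, at 31.5 RPKM, lay below all 6 of the latter.

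**Figure D3:**
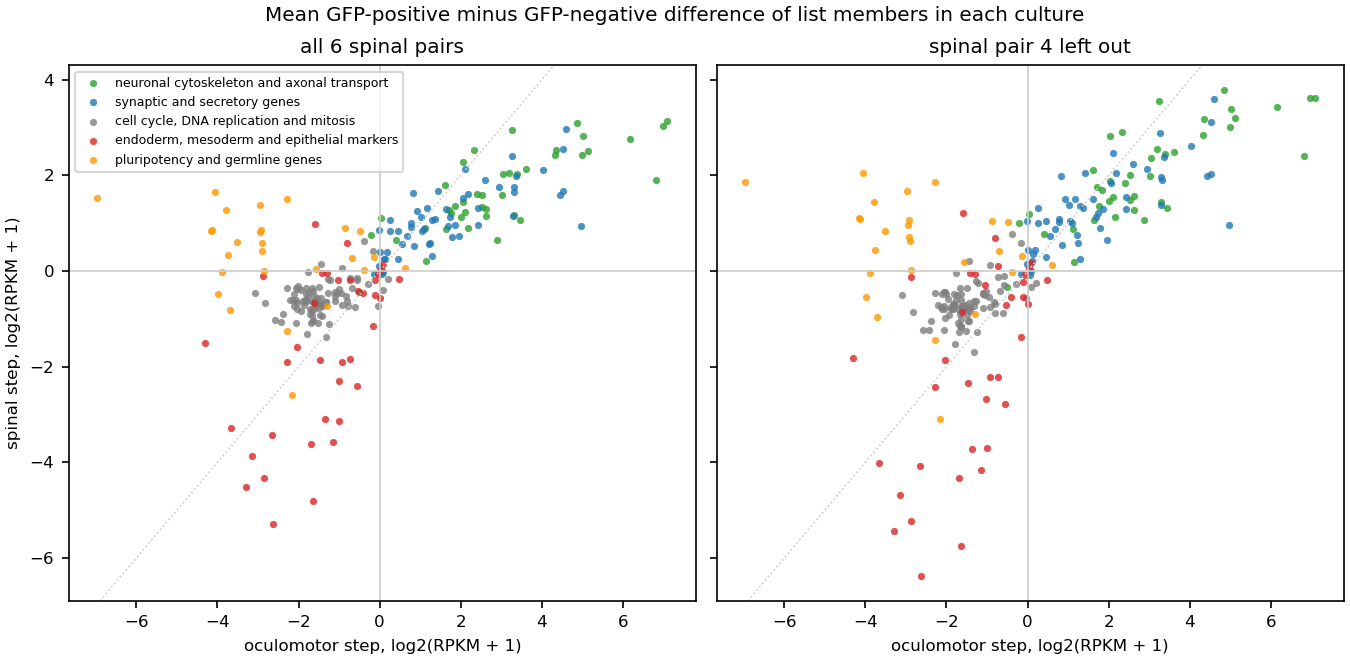
Oculomotor step (horizontal) and spinal step (vertical) of each member of 5 gene lists, in log2(RPKM + 1), with all spinal pairs on the left and without spinal pair 4 on the right, where the dotted line marks equal steps. Cytoskeleton and synaptic genes lie in the upper right, cell cycle and endoderm genes in the lower left, and pluripotency genes at the left on both sides of 0 in the spinal culture.

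Of 37 markers of endoderm, mesoderm and epithelia tested, 21 fell, 0 rose and 16 did not pass, with a median step of -1.41 (-1.15 in the oculomotor and -1.50 in the spinal culture) against -0.01 over all genes. Without pair 4, 22 fell with a median of -1.49. In both cultures, each on its own, 8 fell, or 14 without pair 4, 4 to 6 with another pair left out and 4 without the replicate block. A difference between the cultures passed for 1 member with all pairs and for 10 without pair 4. The sum of their levels was 29.2, 86.8 and 167 RPKM in the oculomotor GFP-positive and 237, 722 and 1176 in the GFP-negative samples, which are apart. Spinal sums were 37.9, 122 and 872 and 895, 1740 and 3227, also apart, with 872 and 895 RPKM in pair 4. *Sparc* was the most abundant member. Spinal GFP-negative samples held the highest median sum of the 4 groups.

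The defining markers of these cell types were present to unequal extents. *Sox17*, a factor of endoderm, was at 0, 0 and 0.121 RPKM in the GFP-positive and 0.394, 6.92 and 8.15 in the GFP-negative samples of the spinal culture and at 0, 0 and 0.0451 RPKM in the GFP-positive and 0, 0.563 and 0.979 in the GFP-negative samples of the oculomotor culture, and fell by -1.48 (SE 0.22, adjusted p = 0.000695, lower in 11 of 12 pairs, all but oculomotor pair 4). *Ttr*, a thyroxine carrier of visceral endoderm, was at 0, 0.701 and 9.17 RPKM in the GFP-positive and 0.193, 36.9 and 218 in the GFP-negative samples of the spinal culture, and fell by -3.04 (SE 0.55, adjusted p = 0.00216, lower in 11 of 12 pairs, all but spinal pair 2). *Apoa1*, an apolipoprotein of endoderm, fell by -1.67 (SE 0.41, adjusted p = 0.0133, lower in 10 of 12 pairs). *Afp*, the fetal endoderm albumin relative, was listed at 0 in all 12 GFP-positive samples and at medians of 0.110 and 0.175 RPKM in the GFP-negative ones, with a step of -0.42 (adjusted p = 0.0839). Markers of mesenchyme and vessels were not alike. *Pdgfra*, described below, had a median of 5.66 RPKM in the spinal GFP-negative samples. The medians of *Col1a1*, *Col3a1*, *Pecam1* and *Cdh5* were under 1 RPKM in all 4 groups, and none of the 4 passed, with steps of -0.30 (adjusted p = 0.111), -0.16 (adjusted p = 0.0702), -0.10 (adjusted p = 0.754) and -0.28 (adjusted p = 0.307).

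Of 39 genes of ventral interneurons and other neurons tested, 5 rose, 2 fell and 32 did not pass, with a median step of 0.01 (0 in the oculomotor and 0.02 in the spinal culture) against -0.01 over all genes. These 7 genes are 17.9% of the list, near the 18.2% that passed among all genes. Of the 39 genes, 31 had a mean under 1 RPKM, where the offset makes steps smaller. Among genes with a mean of at least 1 RPKM, 6 of 8 members passed, 4 higher and 2 lower, against 34.8% of all genes. Their summed level was 31.7, 42.2 and 71.4 RPKM in oculomotor GFP-positive and 14.4, 16.9 and 80.2 in GFP-negative samples, and 32, 47.1 and 68.9 and 26.9, 39.1 and 64.7 in the spinal samples. The monoamine transporter gene *Slc18a2* was the most abundant. The transmitter markers *Gad1*, *Gad2*, *Slc32a1* and *Slc17a6*, of GABA and glutamate neurons, had medians under 1 RPKM in all 4 groups and did not pass, with steps of 0.08 (adjusted p = 0.686), 0.33 (adjusted p = 0.244), -0.07 (adjusted p = 0.563) and 0.07 (adjusted p = 0.608). The interneuron factor *En1* did not pass either, at -0.26 (adjusted p = 0.601). The genes that rose most were *Bhlhe22*, a helix-loop-helix factor, by 1.85 (SE 0.34, adjusted p = 0.00217, higher in 10 of 12 pairs), *Slc18a2* by 1.85 (SE 0.34, adjusted p = 0.00225, higher in 10 of 12 pairs) and *Th*, the first enzyme of dopamine synthesis, by 1.48 (SE 0.33, adjusted p = 0.00751, higher in 11 of 12 pairs, all but oculomotor pair 4). *Slc18a2* was at 7.62, 18.8 and 43.4 RPKM in the GFP-positive and 0.551, 1.89 and 2.46 in the GFP-negative samples and *Bhlhe22* at 3.32, 9.24 and 28.6 RPKM in the GFP-positive and 0, 0.287 and 1.16 in the GFP-negative samples of the oculomotor culture, and *Th* at 2.04, 5.95 and 15.4 RPKM in the GFP-positive and 0, 0.730 and 1.99 in the GFP-negative samples of the spinal culture. The spinal steps of *Slc18a2* and *Bhlhe22* were both 0.80 and did not pass (adjusted p = 0.407 and 0.405). For *Th* the oculomotor step of 0.97 did not pass (adjusted p = 0.194). *Tal2* and *Gata3*, factors of GABA neurons, fell by -1.15 (adjusted p = 0.0497) and -0.78 (adjusted p = 0.0411). *Tal2* did not pass without pair 4 (adjusted p = 0.063), and neither passed when samples took the place of pairs (adjusted p = 0.0796 and 0.39). Both calls were also lost without spinal pair 2 (adjusted p = 0.104 and 0.0552).

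Glia and neural crest markers moved in neither direction as a group, with 3 rises and 3 falls among 19 tested and a median step of -0.16 (-0.14 in the oculomotor and -0.06 in the spinal culture) against -0.01 over all genes. The defining glial genes *Gfap*, *Aqp4* and *Sox10* had medians under 1 RPKM in all 4 groups, and their steps of -0.06 (adjusted p = 0.569), -0.07 (adjusted p = 0.277) and -0.16 (adjusted p = 0.153) did not pass. *Pdgfra*, a receptor of glial progenitors and of mesenchyme, was at 0, 0.0470 and 0.605 RPKM in the GFP-positive and 0, 5.66 and 21.9 in the GFP-negative samples of the spinal culture and fell by -1.55 (SE 0.28, adjusted p = 0.00214, lower in 11 of 12 pairs, all but spinal pair 4). *Snai1* and *Ets1*, factors of migrating crest and mesoderm, fell by -1.04 (adjusted p = 0.02) and -0.60 (adjusted p = 0.00446). The members that rose are also carried by neurons. *Crabp1*, which binds retinoic acid, was the most abundant of the list, at 1051, 2083 and 7366 RPKM in the GFP-positive and 48.9, 273 and 1919 in the GFP-negative samples of the oculomotor culture. Its spinal levels were 55.5, 233 and 506 RPKM in the GFP-positive and 4.22, 72.8 and 319 in the GFP-negative samples, which overlap, and the step was 2.24 (SE 0.40, adjusted p = 0.00217, higher in 10 of 12 pairs). The myelin protein gene *Mbp*, whose locus also gives transcripts in young neurons, rose by 1.24 (SE 0.19, adjusted p = 0.000762, higher in 12 of 12 pairs), and the glutamate transporter *Slc1a2* by 1.09 (SE 0.29, adjusted p = 0.0196, higher in 9 of 12 pairs).

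Immediate early and stress genes, which cell dissociation and sorting can switch on, showed 4 rises and 2 falls among 25 tested, with a median step of -0.03 (0.06 in the oculomotor and -0.16 in the spinal culture) against -0.01 over all genes. The genes that passed are 24% of the list, beside 18.2% of all genes. Without pair 4, 4 rose and 3 fell. *Dusp1*, a phosphatase induced by stress, rose by 0.81 (SE 0.14, adjusted p = 0.00139, higher in 11 of 12 pairs, all but spinal pair 1), *Jund*, an AP-1 subunit, by 1.16 (SE 0.23, adjusted p = 0.00379, higher in 10 of 12 pairs), and *Ddit3*, the factor CHOP of the endoplasmic reticulum stress response, by 0.82 (adjusted p = 0.0295). *Pmaip1*, which encodes the cell death protein Noxa, fell by -1.82 (SE 0.27, adjusted p = 0.000649, lower in 9 of 12 pairs), and *Fosl2*, another AP-1 subunit, by -0.60 (adjusted p = 0.0155). *Pmaip1* fell in the oculomotor culture by -3.42 and had a spinal step of -0.22, and these differed (adjusted p = 0.00981). *Jund* and *Ddit3* did not pass when samples took the place of pairs (adjusted p = 0.187 and 0.184). *Ddit3* also did not pass without spinal pair 2 (adjusted p = 0.0685).

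List medians held their sign in both depth ranges for the lists that moved most. Within replicates 1 to 4 and within replicates 5 and 6 they were 1.93 and 2.31 for the cytoskeleton, 1.62 and 1.34 for identity factors, 1.11 and 1.24 for synaptic genes, and -0.89 and -1.45 for the cell cycle. For endoderm markers they were -1.30 and -1.54, for pluripotency genes -1.40 and -0.53, and for Notch genes 0.32 and -0.07, so that the Notch list alone of these changed its sign. With samples in place of pairs 7.65% of all genes passed, and within replicates 1 to 4 6.85%. Fewer members of these lists passed there too, at 34 and 33 for the cytoskeleton, 14 and 13 for identity factors, 30 and 24 for synaptic genes, 19 and 15 for endoderm markers, 4 and 11 for pluripotency genes and 4 and 5 for Notch genes.

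The number of genes above 1 RPKM differed by -4.75, GFP-positive minus GFP-negative (SD 525, n = 12 pairs, exact two-sided sign-flip test, p = 0.976), and the number above 0.1 RPKM by -641 (SD 1550, lower in 10 of 12 pairs, exact p = 0.182). Without spinal pair 4 the first difference was 0.545 genes. Mitochondrial genes held 11.7% of the summed RPKM in GFP-positive and 9.06% in GFP-negative samples, a difference of 2.64 points (SD 3.74, higher in 9 of 12 pairs, exact p = 0.0337), and of 2.39 points without pair 4 (exact p = 0.0654). Ribosomal protein genes held 13.0% and 17.3%, a difference of -4.24 points (SD 6.25, lower in 10 of 12 pairs, exact p = 0.0444), and of -4.56 points without pair 4 (exact p = 0.0469). Such shifts can scale the other genes of a library. When values were rescaled without mitochondrial genes and the 3 predicted gene models, 125 of the 126 named genes kept their call and 1 lost it. Values were not rescaled for ribosomal protein genes. The smallest p that these tests can give is 0.000488 with 12 pairs and 0.000977 with 11.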

How the data were processed

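The authors mapped reads with HISAT2 2.0.3 to mm10 and deposited RPKM from rpkmforgenes. The table has 22889 entries. Of these, 37 are at 0 in all samples, 4 share a name and 25 have date names, and none of those is named. Depth was estimated from the steps of low values in 5911 genes with a single transcript. Between 95.9% and 97.8% of them were whole reads within 2%.

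limma 3.58.1 in R 4.3.3 was fitted to the 12 within-pair differences of log2(RPKM + 1), with culture as a sum-coded term and a mean-variance trend. P values were adjusted by Benjamini-Hochberg over 22179 genes that exceed 0 RPKM in 2 or more samples. Same-number fractions were taken as pairs as the rule asks. Their deviations correlated at 0.379 to 0.728 (oculomotor) and 0.421 to 0.661 (spinal) over 11952 genes, and those of unlike numbers at up to 0.697 and 0.618. Spinal GFP-positive 6 lay closer to GFP-negative 5 (0.618) than to its own number (0.575). The fit was tested on simulated data with 12 pairs. It called 116 of 200 genes given a shared step of 1 (58%) and 190 of 200 given a step of 2 (95%). Of the genes given no step, 5 and 8 were called in these 2 runs. The simulated differences were independent between genes, with the same SD in both cultures and the same step in each pair. In the data the SDs could differ, as for *Isl1* at 0.504 (oculomotor) and 1.805 (spinal). The shares called in the simulation need not hold there. Positions are from GENCODE M21. Python 3.11.15 with pandas 2.3.3, numpy 2.4.6, scipy 1.17.1 and matplotlib 3.10.9 did the rest.

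Named genes are *Isl1* and *Mnx1*, the 12 largest shared steps each way among genes moving alike in at least 11 pairs with a mean of at least 5 RPKM in the higher fraction of both cultures (predicted gene models left out), up to 3 members of each list each way, the cell type markers, the exchanged subunits and the 3 promoter genes, 126 in all, and 3 genes these rules pick are not reported here. The members and the 17 lists, which come from general knowledge, were chosen with earlier results of these data known.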

Additional observations from a re-analysis of the deposited data

Results flagged for a closer look

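In groups of 6 samples or pairs, a value was singled out where its gap to the nearest other value exceeded Dixon's 95% critical share of the whole range. This was so in 23 of 272 groups, and chance gives about 1 in 20 groups. The share of the 10 highest genes was 76.26% in spinal GFP-negative sample 2, far above the other 5. The share of the 3 predicted gene models was 1.265% in oculomotor GFP-negative sample 2, 17.79% in spinal GFP-positive sample 2 and 68.81% in spinal GFP-negative sample 2.

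Spinal pair 4 was the pair far from the other 5 in 8 genes. Its differences were -0.15 for *Isl1*, -0.36 for *Srgn*, 0.17 for *Col4a1*, -0.003327 for *Sparc*, -0.56 for *Lama1*, -0.25 for *Lhx4*, -0.38 for *Elavl3* and -0.39 for *Prph*. Those of spinal pair 2 were 2.87 for *Olig2*, 1.13 for *Gad1* and -0.77 for *Gfap*. Spinal pair 6 stood apart at 0.66 for *Slc17a6*, -1.79 for *Afp* and -2.38 for *Cdh5*. Among the oculomotor pairs, pair 1 stood apart at 5.50 for *Nefm*, 0.78 for *Slc17a6* and 0.14 for *Gfap*, pair 3 at 3.75 for *Cacna2d1* and pair 6 at -0.50 for *Col3a1*. Several of these genes are near 0 RPKM in most samples.

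Of 126 named genes, 22 had a step that differed between the cultures in the limma test (adjusted p under 0.05). The oculomotor minus spinal step was above 0 for *Isl1* (3.47), *Nefm* (3.96), *Nefl* (3.94), *Gap43* (4.92), *Rbp4* (3.56), *Onecut2* (2.81), *Chrna3* (3.56), *St18* (2.83), *Ebf1* (4.24), *Elavl4* (2.83), *Elavl3* (2.80), *Scg3* (2.85), *Ncam1* (2.28) and *Snap25* (2.84). It was below 0 for *Mybl2* (-2.63), *Cdca7* (-2.15), *Sox2* (-1.98), *Dppa5a* (-8.49), *Pmaip1* (-3.20), *Pou5f1* (-3.32), *Nanog* (-5.72) and *Zfp42* (-3.50). *Rbp4* fell less in the oculomotor culture, and the other genes above 0 rose more there.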

How the results depend on the processing

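With samples in place of pairs, so that the replicate is no longer a block, 1697 genes passed (1024 higher, 673 lower in GFP-positive cells) and 71 passed in each culture. Of 126 named genes, 16 lost their call without the block, and the steps are the same in both fits by design. Replicates 1 to 4 alone gave 1519 genes (938 higher, 581 lower) and 0 that passed in each culture, and 24 named genes lost their call. Replicates 5 and 6 alone gave 0 in all of these counts, at 2 pairs a culture, with 3946 genes at an unadjusted limma p under 0.05.

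Leaving out a pair at a time gave 58 to 598 genes that passed in each culture, and 3163 to 4049 for the shared step. A mean of at least 1 RPKM gave 570 genes that passed in each culture, with 11952 genes tested, and sample quality weights gave 135. Why these counts moved was not tested. Without spinal pair 4 the difference in genes above 1 RPKM was 0.545 and the mitochondrial difference 2.393 points, no longer past the threshold. The count of genes with a shared step stayed within 1.5 times its value under the other alternatives run, and no named gene changed from a rise to a fall or back. The alternatives without spinal pair 4 for the same-sign count and for the difference between the cultures were chosen after seeing the data. Depth limits what is seen below about 1 RPKM in replicates 1 to 4.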
